A study of Mus musculus with 6 samples.

Results

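A set of 45 genes was low in an untreated mouse mammary tumour line and far higher in both of its long-term H2O2-treated derivatives, and these are called switched on here. They were chosen from the deposited table of 24454 genes, in CPM, the reads of a gene scaled to the same total of assigned reads in every library. Each group's mean of log2(CPM + 0.5) was taken, and a gene was kept where both treated lines stood at least 4 above the untreated line, which is 16-fold on that scale, and where its mean over all libraries was at least 1 CPM. The floor of 1 CPM alone left 11428 genes, so the 45 are a small set, and 22 further genes reached the difference of 4 only in I80 and 37 only in DI150. The rise over the untreated line is the rule itself and is described here without a test, whereas the difference between the treated lines did not enter the rule and was tested.

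The MTflEcad line is epithelial and comes from a tumour in the mammary gland of an MMTV-Neu mouse, a strain whose MMTV promoter drives the Neu (ERBB2) oncogene in that gland. Cells were left untreated (PBS, 0 µM H2O2), or received daily H2O2 over 7 months, either 80 µM (the line I80) or 150 µM (the line DI150), and all 3 groups carry the same tumour background. There is 1 line per dose, so the dose and the line cannot be told apart. Each group has 2 RNA-seq libraries, described as biological duplicates. The sources do not say whether these were separate cultures, and p-values therefore measure the spread between these libraries, which may be technical.

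The libraries held 21017849 to 26608715 assigned reads, so 1 read was worth 0.0376 to 0.0476 CPM and the floor used for a gene without reads, 3 reads per library, 0.113 to 0.143 CPM. All 9 epithelial markers were detected in at least 1 group, and their summed level was 9952 and 9659 CPM in PBS, 3776 and 3765 CPM in I80, and 3897 and 3545 CPM in DI150. Of these 9, 7 were lower in I80 and 7 in DI150 than in PBS (limma adjusted p under 0.05), where 34.2% and 36.1% of all tested genes were lower, and 1, Epcam, was higher in DI150. Krt19 had no read in either treated line. Fibroblast markers summed to between 21.8 and 24.4 CPM in all libraries, with Pdgfrb, Thy1 and Dpt at 0 throughout, but single markers moved in opposite ways. Col1a2 fell from 15.3 CPM to 0 reads in both treated lines, while Pdgfra rose from 5.27 CPM to 14.8 CPM in I80 and 18.7 CPM in DI150. The part of such shifts in the results below was not tested. In bulk RNA a lower level can come from fewer cells of a kind or from less RNA per cell, and these cannot be told apart.

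Several of the 45 genes belong to the cell's chemical defence. Glutathione peroxidases spend glutathione to reduce H2O2 and lipid peroxides to water and alcohols. Glutathione S-transferases attach glutathione to electrophiles, and carbonyl and aldo-keto reductases use NADPH to reduce reactive aldehydes and ketones. Many genes of these families are targets of NRF2, a transcription factor that is degraded in unstressed cells, accumulates when oxidants or electrophiles modify its partner KEAP1, and binds antioxidant response elements. The remaining genes are of many kinds. Among them are collagens and cartilage proteins, which mammary epithelium is not known for, a milk protein, which it is known for, a transcription factor of the circadian output family, and regulators of actin and small GTPases.

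By annotation, 42 of the genes are protein coding, Gm15663 and D330050G23Rik are long noncoding RNAs, and Gpx2-ps1 is a pseudogene. Not all were silent before. In PBS, 5 had no read, 27 had a mean under 1 CPM and 8 had a mean of at least 5 CPM, the median of the 45 was 0.760 CPM and the highest mean was 23.2 CPM (Coro7). In I80 the means ran from 7.95 to 895 CPM with a median of 72.0 CPM, and in DI150 from 8.10 to 1065 CPM with a median of 76.1 CPM. Together the 45 genes took 0.00841% and 0.0134% of the reads of the PBS libraries, 0.666% and 0.678% in I80, and 0.769% and 0.782% in DI150. The log2 difference from PBS ranged from 4.02 to 9.09 in I80 (median 5.04) and from 4.04 to 10.23 in DI150 (median 5.11), while over all tested genes the medians were -0.0020 and -0.032. At most, PBS stood at 5.54% of the I80 level and 5.16% of the DI150 level of a gene.

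**Figure D1:**
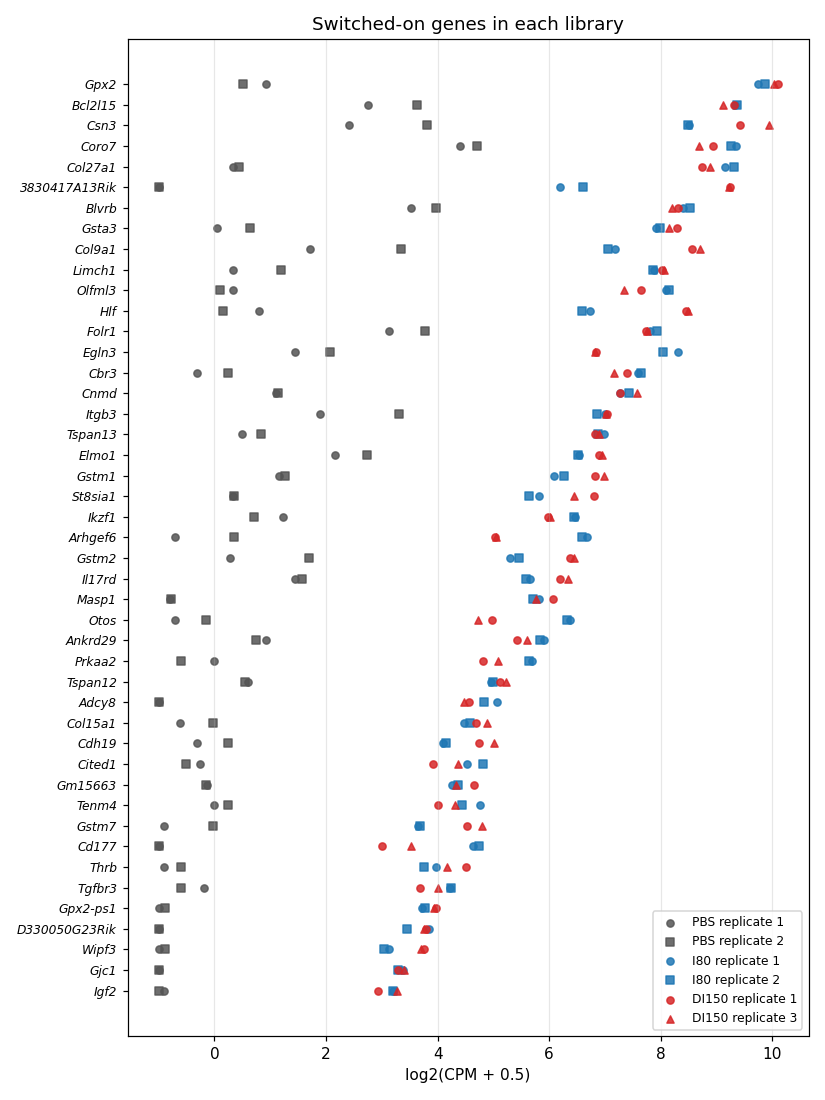
Level of each of the 45 switched-on genes in each of the 6 libraries, as log2(CPM + 0.5), with genes ordered by their mean CPM over the 4 treated libraries (grey PBS, blue I80, red DI150; the marker shape gives the replicate). The PBS points lie left of all treated points in every row, which the choice of the genes fixes, and the blue and red points stand well apart for 3830417A13Rik, Hlf, Arhgef6, Otos and Cd177.

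In that plot of all 45 genes by library, the treated libraries of 1 line lie close together, and the ratio of the higher to the lower was at most 1.33 in I80 (3830417A13Rik) and 1.47 in DI150 (Cd177). The PBS libraries were less alike. Of the 45 genes, 29 were higher in PBS replicate 2, 11 were lower and 5 had no read in either. That lean was shared by other weakly expressed genes, since 72.2% of the 3047 tested genes with a PBS mean under 15 CPM were also higher in PBS replicate 2.

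The enzyme genes of glutathione, peroxide and carbonyl chemistry, together with the pseudogene Gpx2-ps1, made up 8 of the 45 genes. Among them was the gene with the highest treated level. Gpx2 encodes a glutathione peroxidase of epithelia, a selenoprotein that reduces H2O2, and lies at chr12:76792335-76795554, minus strand in GRCm38. It stood at 1.39 and 0.930 CPM in PBS, 856 and 934 CPM in I80 and 1091 and 1039.6 CPM in DI150. Its PBS libraries rested on 37 and 23 reads, and both treated lines were far above them (771-fold in I80 and 918-fold in DI150). Both DI150 libraries were above both I80 libraries, but the difference between the lines was 0.25 ± 0.13 (SE) on the log2 scale and did not pass (limma adjusted p = 0.141). Per kilobase of exon, Gpx2 also had the highest treated level of the 42 genes with a known exon length, 304 CPM per kb, ahead of Bcl2l15 at 229.7 CPM per kb and 3830417A13Rik at 194 CPM per kb.

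The 250 bases before the RefSeq start of Gpx2 (chr12:76795555-76795804, minus strand, GRCm38.p6) are shown because this most abundant transcript starts from a stretch that holds 0 CG dinucleotides, so no letter is in capitals.
Gpx2: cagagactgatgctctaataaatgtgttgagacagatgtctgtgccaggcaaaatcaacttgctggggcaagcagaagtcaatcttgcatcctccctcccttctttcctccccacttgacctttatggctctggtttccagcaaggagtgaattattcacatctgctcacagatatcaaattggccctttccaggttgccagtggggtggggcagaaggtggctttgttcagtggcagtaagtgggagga

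Gpx2-ps1, a pseudogene of Gpx2, was listed with 0 and 0.0404 CPM in PBS, 12.6 and 13.2 CPM in I80 and 15.3 and 14.9 CPM in DI150. A total of 1 PBS read lies behind it, and pooled reads gave a ratio of 663 for I80 over PBS (exact 95% interval 119 to 26215). Of the stretches as long as a read in its transcript, 17.9% also occur in Gpx2, so part of its count can belong to Gpx2 and it is uncertain.

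Gsta3, an alpha-class glutathione S-transferase, lies at chr1:21240565-21265575, plus strand. It had 0.526 and 1.05 CPM in PBS, 241 and 253 CPM in I80 and 313 and 283 CPM in DI150. Both DI150 libraries lay above both I80 libraries, a difference that did not pass the test (limma adjusted p = 0.251), and the PBS libraries lay far below all of them. Its promoter was 1 of 7 of the 51 RefSeq promoters of the switched-on genes that hold TGACNNNGC, the core letters of the antioxidant response element, on either strand. The 250 bases before a RefSeq start of Gsta3 (chr1:21240335-21240584, plus strand) are shown with that match in capitals, 121 bases before the start.
Gsta3: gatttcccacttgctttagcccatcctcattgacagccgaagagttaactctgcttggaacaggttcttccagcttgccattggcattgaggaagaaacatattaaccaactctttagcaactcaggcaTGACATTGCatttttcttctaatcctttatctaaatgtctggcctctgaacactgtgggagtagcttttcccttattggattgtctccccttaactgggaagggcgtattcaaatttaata

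Gstm1, Gstm2 and Gstm7, of the mu class, lie in 1 cluster on chromosome 3. Gstm1 averaged 1.81 ± 0.121 CPM in PBS, 72.05 ± 6.71 in I80 and 119 ± 10.01 in DI150 (SD, n = 2 for this and later means). Gstm2 averaged 1.73 ± 1.44 CPM in PBS, 41.1 ± 3.04 in I80 and 84.8 ± 3.12 in DI150. Gstm7 had 0.0376 and 0.485 CPM in PBS, 11.98 and 12.4 CPM in I80 and 22.4 and 27.1 CPM in DI150, and its PBS reads were nearly all in replicate 2. All 3 were higher in DI150 than in I80 in both libraries, by 1.66, 2.06 and 2.03 times. Limma called Gstm1 (limma adjusted p = 0.00182) and Gstm7 (limma adjusted p = 0.0209) but not Gstm2 (limma adjusted p = 0.0599). The log2 differences were 0.73 ± 0.11 for Gstm1, 1.04 ± 0.38 for Gstm2 and 0.99 ± 0.27 for Gstm7 (SE), so the calls do not rank them by size. The test pools the spread of the PBS libraries, in which Gstm2 had 0.714 and 2.75 CPM. Members of this family resemble each other, and 10.4% of the read-length stretches of Gstm1 also occur in other genes, mostly Gstm2-ps1 and Gstm3, so its count is uncertain.

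Cbr3, a carbonyl reductase on chromosome 16, averaged 0.494 ± 0.273 CPM in PBS, 196 ± 5.68 in I80 and 155 ± 18.6 in DI150. Blvrb, which reduces biliverdin and flavins with NADPH, had 11.01 and 15.2 CPM in PBS, 338 and 367 CPM in I80 and 318 and 295 CPM in DI150. Both were higher in the I80 libraries than in the DI150 libraries, but neither difference passed the test (limma adjusted p = 0.16 and 0.269). This group of 8 counts the pseudogene Gpx2-ps1. In it, limma called 2 genes higher in DI150 than in I80 and none lower, with differences between -0.34 and 1.04 on the log2 scale. Of all tested genes, 21.9% were called higher and 21.9% lower in that comparison. With so few genes, these counts are not a result about the group.

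**Figure D2:**
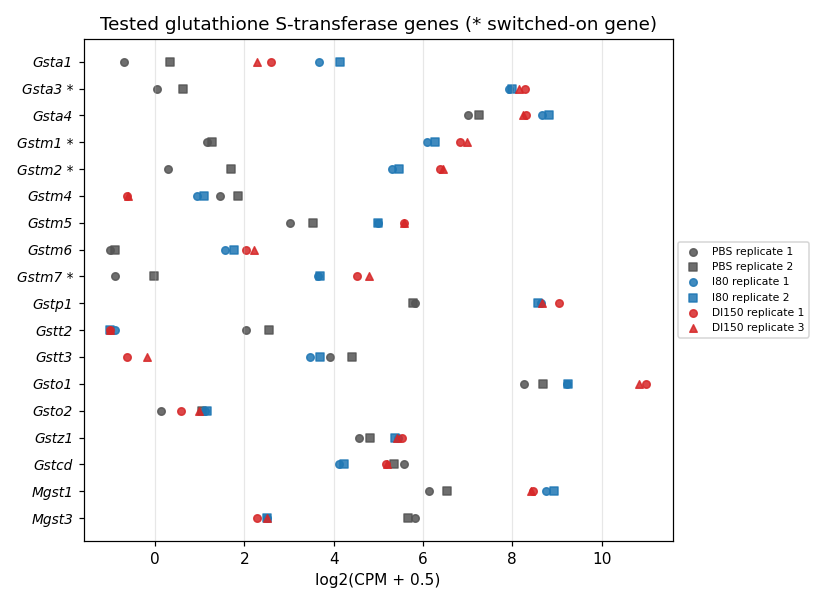
Level of the 18 tested glutathione S-transferase genes in each library, as log2(CPM + 0.5), with an asterisk at the 4 switched-on genes (grey PBS, blue I80, red DI150; the marker shape gives the replicate). Gsta3, Gstm1, Gstm2 and Gstm7 lie below 2 in PBS and above 3 in the treated lines, whereas Gstt2, Gstt3, Gstm4 and Mgst3 lie lower in DI150 than in PBS.

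The same families were read as whole lists, in which the switched-on genes were bound to be high. Of 40 tested NRF2 targets, 31 rose and 4 fell in I80 against PBS and 32 rose and 5 fell in DI150 against PBS, where limma called 32.3% of all tested genes higher in I80 and 34.2% lower, and 32.7% higher in DI150 and 36.1% lower, 66.4% and 68.7% in all. The list includes 6 of the switched-on genes (Gpx2, Gsta3, Gstm1, Gstm2, Cbr3 and Blvrb). Its median log2 difference was 1.52 in I80 and 1.41 in DI150. Nqo1 and Hmox1, often used as readouts of NRF2 and picked here after their values were seen, stood apart from most of the list. Nqo1, a quinone reductase, averaged 0.862 CPM in PBS, 1.09 CPM in I80 and 3.79 CPM in DI150 and was called in DI150 alone (limma adjusted p = 0.498 and 0.000722). Hmox1, which breaks down heme, fell from 23.3 CPM to 15.5 CPM in I80 and 12.97 CPM in DI150 (limma adjusted p = 0.0242 and 0.00497).

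The plot of glutathione S-transferases by library shows that their genes did not move as 1 block. Of 18 tested genes, limma called 12 higher in each treated line, and 4 lower in I80 and 5 in DI150. Of all tested genes, it called 32.3% higher and 34.2% lower in I80, and 32.7% and 36.1% in DI150. Gstp1 averaged 55.1, 389 and 464 CPM in PBS, I80 and DI150, and Gsto1 averaged 357, 604 and 1923 CPM. Gstt2, of the theta class, was at 4.49 CPM in PBS and had 1 read in I80 and none in DI150, and Mgst3 fell from 53.4 CPM to 5.19 and 4.74 CPM. Among 4 tested glutathione peroxidases, Gpx2 was the switched-on one, and Gpx1 (179, 601 and 701 CPM) and Gpx8 (9.35, 30.9 and 35.1 CPM) also rose in both lines. Among 11 tested carbonyl and aldo-keto reductases, limma called 7 higher and 4 lower in each line, beside the same shares of all tested genes. Akr1b8, an aldo-keto reductase, went from 76.0 CPM on average in PBS to 0 reads in both treated lines.

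Egln3 and Prkaa2 encode sensors of oxygen and energy. Egln3 is a prolyl hydroxylase that marks hypoxia-inducible factors for degradation, and Prkaa2 is a catalytic subunit of AMP-activated protein kinase. Egln3 stood at 2.22 and 3.72 CPM in PBS, 316 and 261 CPM in I80 and 113 and 112 CPM in DI150. The I80 libraries were more than 2 times the DI150 libraries, a log2 difference of -1.35 ± 0.19 (SE, limma adjusted p = 0.00142). Prkaa2 had 0.489 and 0.162 CPM in PBS, 51.3 and 49.3 CPM in I80 and 27.5 and 33.5 CPM in DI150, and was also lower in DI150, with a log2 difference of -0.72 ± 0.20 (SE, limma adjusted p = 0.0225).

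Transcription regulators made up 4 of the 45 genes. Hlf encodes a PAR bZIP transcription factor, a family that follows the circadian clock in many tissues, and lies at chr11:90336535-90390917, minus strand. It had 1.24 and 0.607 CPM in PBS, 105 and 96.1 CPM in I80 and 350.5 and 357 CPM in DI150. The DI150 libraries were 3.52 times the I80 libraries with no overlap, a log2 difference of 1.81 ± 0.19 (SE, limma adjusted p = 0.000351), and both were far above PBS (109-fold in I80 and 383-fold in DI150). Hlf was the 1 switched-on gene of the 18 tested PAR bZIP and clock genes. Its relatives changed far less. Dbp fell from 6.13 CPM to 1.36 CPM in I80 and 2.51 CPM in DI150 (limma adjusted p = 0.000226 and 0.00268), and Tef, at 72.5 CPM in PBS, 81.7 CPM in I80 and 89.2 CPM in DI150, was called higher in DI150 alone (limma adjusted p = 0.0504 and 0.00479).

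The 250 bases before the RefSeq start of Hlf (chr11:90390918-90391167, minus strand) are shown for contrast with Gpx2, with each of its 26 CG dinucleotides in capitals.
Hlf: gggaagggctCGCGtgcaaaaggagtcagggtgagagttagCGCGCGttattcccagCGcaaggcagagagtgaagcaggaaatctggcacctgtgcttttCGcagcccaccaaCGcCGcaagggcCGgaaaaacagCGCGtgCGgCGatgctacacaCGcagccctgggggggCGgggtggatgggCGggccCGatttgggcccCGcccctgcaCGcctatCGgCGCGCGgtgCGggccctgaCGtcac

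Thrb, a nuclear receptor for thyroid hormone, averaged 0.0997 ± 0.0878 CPM in PBS, 14.1 ± 1.44 in I80 and 19.9 ± 3.36 in DI150, and Cited1, a coactivator that binds CBP and p300, averaged 0.270 ± 0.0962 CPM in PBS, 25.02 ± 3.44 in I80 and 17.4 ± 3.92 in DI150. Ikzf1 encodes Ikaros, a zinc finger protein best known from lymphoid development, and averaged 1.49 ± 0.502 CPM in PBS, 87.3 ± 1.06 in I80 and 63.6 ± 1.02 in DI150. None of these 3 passed the test between the treated lines. The summed leukocyte markers were highest in PBS, where Ikzf1 was lowest. Of 12 markers, 4 were at 0 in all libraries (Cd3e, Adgre1 and S100a9 among them), and Ptprc stayed between 0 and 0.263 CPM. Others moved, and not in 1 direction. Csf1r lost all its reads in both treated lines, against a PBS mean of 11.1 CPM. S100a8 was higher in the treated lines, with means of 0.0202 (PBS), 1.60 (I80) and 0.677 CPM (DI150). Itgam was read in DI150 alone, at 0.238 and 0.114 CPM. The summed level was 86.6 and 102 CPM in PBS, 28.5 and 23.5 CPM in I80, and 74.8 and 63.7 CPM in DI150. Most of that sum came from Cd14. The part of leukocytes in the level of Ikzf1 was not tested.

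Matrix and secreted proteins made up 9 of the genes. Col27a1, a fibrillar collagen of cartilage, lies at chr4:63214009-63334991, plus strand and had 0.752 and 0.849 CPM in PBS, 565 and 633 CPM in I80 and 428 and 471 CPM in DI150. PBS held 20 and 21 reads, and the level was higher by 748-fold in I80 and 561-fold in DI150. The DI150 libraries were both below the I80 libraries, a log2 difference of -0.41 ± 0.09 (SE, limma adjusted p = 0.00834). Fibrillar collagens did not all move with it. Of 6 tested, 3 rose and 2 fell in I80, where 32.3% and 34.2% of all tested genes did, and 4 rose and 2 fell in DI150, where 32.7% and 36.1% did. Col1a2 and Col5a1, at 15.3 and 13.5 CPM in PBS, were without reads in I80.

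Col9a1, a chain of the collagen that coats cartilage fibrils, had 2.78 and 9.71 CPM in PBS, 144 and 133 CPM in I80 and 375 and 417 CPM in DI150. Its PBS libraries differed 3.5-fold, and the DI150 libraries were both above the I80 libraries, a log2 difference of 1.52 ± 0.43 (SE, limma adjusted p = 0.0247). Cnmd, chondromodulin, a growth and vessel regulator of cartilage, averaged 1.68 ± 0.0317 CPM in PBS, 163 ± 12.2 in I80 and 171 ± 24.5 in DI150 and did not pass between the lines (limma adjusted p = 0.67). Otos, otospiralin, a small protein of the inner ear, had 0.113 and 0.404 CPM in PBS, 82.6 and 79.3 CPM in I80 and 31.02 and 25.9 CPM in DI150. The direction was the reverse of that of Col9a1, with I80 at 2.85 times DI150, a log2 difference of -1.50 ± 0.19 (SE, limma adjusted p = 0.00089).

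Since several of the genes are known from cartilage, a list of 24 cartilage genes was written after these values were seen, and it is given as a description only. Of its 13 tested genes, 7 stood at least 1 log2 unit above PBS in both treated lines, 3 at least 1 below in both and 3 did neither, where 7.04% and 8.56% of all tested genes did so. The other 11 of the 24 had a mean under 1 CPM, among them Acan, with 1 read in all libraries together, and Col2a1. Besides the switched-on Col9a1, Col27a1, Cnmd and Otos, which the rule made high, the higher genes were Col11a1, Sox6 and Mia. Otos, better known from the inner ear, was put on the list with its values known. Sox6, a transcription factor of chondrocytes, had 5.04 and 7.93 CPM in PBS, 82.2 and 74.3 CPM in I80, and 99.6 and 97.2 CPM in DI150. Sox9, the master regulator of chondrocytes, was lower, with 29.1 and 24.3 CPM in PBS, 0.780 and 1.07 CPM in I80, and 0.714 and 0.992 CPM in DI150. Col9a2, another collagen IX chain, was also lower, with 4.77 and 9.26 CPM in PBS. It had 0.0390 and 0.206 CPM in I80 and 0.0476 and 0.153 CPM in DI150. Runx2 was the remaining lower gene, with log2 differences from PBS of -2.03 in I80 and -3.00 in DI150.

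Olfml3, a secreted protein with an olfactomedin domain, lies at chr3:103735394-103738001, minus strand and had 0.752 and 0.566 CPM in PBS, 273 and 283 CPM in I80 and 199.7 and 161 CPM in DI150. The PBS libraries held 20 and 14 reads, and DI150 was below I80 in both libraries, a log2 difference of -0.63 ± 0.13 (SE, limma adjusted p = 0.00599). Csn3 encodes kappa-casein, the milk protein that holds casein micelles in solution, and had 4.85 and 13.5 CPM in PBS, 361 and 360.2 CPM in I80 and 687 and 986 CPM in DI150. The DI150 libraries were higher than the I80 libraries and more spread than them, a log2 difference of 1.19 ± 0.39 (SE, limma adjusted p = 0.0399). The PBS libraries, whose spread also enters that SE, differed 2.79-fold. In a list of milk and alveolar genes written after these values were seen, 5 of 12 passed the floor of 1 CPM. Only Csn3, which the rule made high, and Btn1a1 stood at least 1 log2 unit above PBS in both lines. Of all tested genes, 7.04% did so.

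Col15a1, a collagen of basement membrane zones, averaged 0.318 ± 0.237 CPM in PBS, 22.5 ± 1.13 in I80 and 27.1 ± 2.70 in DI150, and Masp1, a serine protease of the lectin pathway of complement, averaged 0.0780 ± 0.00404 CPM in PBS, 53.7 ± 2.88 in I80 and 60.4 ± 8.90 in DI150. Neither passed the test between the treated lines. Igf2, a growth factor, had the lowest mean CPM of the 45 genes over the 4 treated libraries, with 0.0376 and 0 CPM in PBS, 8.70 and 8.66 CPM in I80 and 7.09 and 9.12 CPM in DI150. It had 1 PBS read, and the ratio of pooled reads was 446 for I80 (exact 95% interval 79.5 to 17639) and 422 for DI150 (75.3 to 16703). A readthrough gene, Gm49394, covers 62.8% of the exon bases of Igf2, so the count of Igf2 is uncertain.

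Cell-surface proteins with roles in adhesion or as receptors made up 10 of the genes, with DI150 against I80 differences from -1.43 to 0.75. Itgb3, the integrin beta 3 subunit that binds RGD ligands, averaged 6.29 ± 4.32 CPM in PBS, 122 ± 8.94 in I80 and 130.3 ± 0.836 in DI150, and most of its spread lay in PBS, with 3.23 and 9.34 CPM. Folr1, the folate receptor alpha, averaged 10.7 ± 3.56 CPM in PBS, 233 ± 12.9 in I80 and 214 ± 0.776 in DI150. Cdh19, a cadherin of the neural crest and Schwann cell lineage, averaged 0.494 ± 0.273 CPM in PBS, 16.9 ± 0.402 in I80 and 28.9 ± 3.71 in DI150 and was higher in DI150, a log2 difference of 0.75 ± 0.20 (SE, limma adjusted p = 0.0197). Cd177, a GPI-anchored glycoprotein known from neutrophils, had no read in PBS, 24.3 and 26.2 CPM in I80 and 7.47 and 10.99 CPM in DI150. Without a read in PBS, it stood at least 216-fold above it in I80 and at least 78.9-fold in DI150, where 3 reads per library set the floor. I80 was 2.74 times DI150, a log2 difference of -1.43 ± 0.19 (SE, limma adjusted p = 0.0011).

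Gjc1, the gap junction protein connexin 45, had no read in PBS, 9.87 and 9.27 CPM in I80 and 9.23 and 10.1 CPM in DI150, at least 81.8-fold and at least 82.5-fold above the PBS floor. The I80 and DI150 libraries overlapped (limma adjusted p = 0.965), with a log2 difference of 0.01 ± 0.15 (SE). The tetraspanins Tspan13 (1.10, 121 and 116 CPM in PBS, I80 and DI150) and Tspan12 (0.993, 30.9 and 35.6 CPM), which organise membrane proteins into clusters, and the teneurin Tenm4 (0.588, 23.9 and 17.5 CPM), an adhesion protein of neurons, did not pass between the lines either. Il17rd, a membrane inhibitor of FGF signalling, averaged 2.34 ± 0.176 CPM in PBS, 48.7 ± 1.71 in I80 and 76.1 ± 5.28 in DI150 and was higher in DI150, a log2 difference of 0.64 ± 0.10 (SE, limma adjusted p = 0.00245). Tgfbr3, betaglycan, a coreceptor of TGF-beta ligands, averaged 0.269 ± 0.151 CPM in PBS, 18.3 ± 0.256 in I80 and 13.97 ± 2.32 in DI150 (limma adjusted p = 0.129).

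Adcy8, an adenylyl cyclase activated by calcium, had no read in PBS, 32.97 and 27.9 CPM in I80 and 23.3 and 21.8 CPM in DI150. It stood at least 260.3-fold above the PBS floor in I80 and at least 192-fold in DI150, and was slightly lower in DI150, a log2 difference of -0.42 ± 0.14 (SE, limma adjusted p = 0.0398). St8sia1, which makes the ganglioside GD3, had 0.752 and 0.768 CPM in PBS, 55.7 and 49.3 CPM in I80 and 111 and 86.2 CPM in DI150. Both DI150 libraries were above both I80 libraries, a log2 difference of 0.90 ± 0.14 (SE, limma adjusted p = 0.00211).

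St8sia1 and Cdh19 are known from the neural crest, and a list of 16 genes of that lineage, written after these values were seen, is given as a description. Of the 7 tested, 5 stood at least 1 log2 unit above PBS in both lines and 1 below in both (Mitf). Of all tested genes, 7.04% and 8.56% did so. The 5 include the switched-on St8sia1 and Cdh19, which the rule made high. The other 9 of the 16 had a mean under 1 CPM. Sox10, the lineage's transcription factor, did neither, at 0.99 log2 units above PBS in I80 and 1.39 in DI150. It had 206 and 266 CPM in PBS, 481 and 453 CPM in I80, and 641 and 590 CPM in DI150.

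Proteins that act on actin and small GTPases made up 5 of the genes. Coro7, a coronin of the Golgi, had 20.7 and 25.6 CPM in PBS, 651 and 610.2 CPM in I80 and 488 and 409.5 CPM in DI150. It had the highest PBS level of the 45 genes, and the treated level was higher by 27.2-fold in I80 and 19.4-fold in DI150. DI150 was below I80 in both libraries, a log2 difference of -0.49 ± 0.12 (SE, limma adjusted p = 0.0126). Limch1, which activates nonmuscle myosin, had 0.752 and 1.78 CPM in PBS, 234 and 232 CPM in I80 and 259 and 267 CPM in DI150, with no difference between the lines that passed (limma adjusted p = 0.581). Elmo1, which works with DOCK proteins to activate Rac, averaged 5.07 ± 1.58 CPM in PBS, 91.5 ± 0.815 in I80 and 121 ± 3.46 in DI150 (limma adjusted p = 0.0932).

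Arhgef6, an exchange factor for Rac and Cdc42, had 0.113 and 0.768 CPM in PBS, 102 and 95.2 CPM in I80 and 32.2 and 32.7 CPM in DI150. The I80 libraries were 3.05 times the DI150 libraries, a log2 difference of -1.59 ± 0.29 (SE, limma adjusted p = 0.00407), the lowest difference among the 45 genes. Wipf3, a relative of the WASP-interacting protein, had 0 and 0.0404 CPM in PBS, 8.19 and 7.71 CPM in I80 and 12.99 and 12.4 CPM in DI150, and was higher in DI150, a log2 difference of 0.65 ± 0.15 (SE, limma adjusted p = 0.00993). With 1 PBS read, its pooled ratio was 409 in I80 (exact 95% interval 72.9 to 16176) and 651 in DI150 (116 to 25763). Wipf3 overlaps exons of Scrn1 on the opposite strand over 3.40% of its exon bases, and reads there cannot be told apart because no source says how strand was used.

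The remaining genes are a BCL2 relative, an ankyrin-repeat gene, a little-studied gene and noncoding RNAs. Bcl2l15, of the BCL2 family of apoptosis regulators, lies at chr3:103831036-103854618, plus strand and had 6.20 and 11.8 CPM in PBS, 644 and 657 CPM in I80 and 635 and 557 CPM in DI150. The treated level was higher than PBS by 72.3-fold in I80 and 66.2-fold in DI150, and the small difference between the lines did not pass (limma adjusted p = 0.692). Gm43064, on the same strand, covers 21.0% of its exon bases, so its count is uncertain. Ankrd29 averaged 1.28 ± 0.154 CPM in PBS, 57.9 ± 1.95 in I80 and 45.1 ± 4.11 in DI150, a log2 difference of -0.36 ± 0.12 (SE, limma adjusted p = 0.0411). The noncoding RNA D330050G23Rik had no read in PBS, 13.9 and 10.5 CPM in I80 and 13.4 and 13.01 CPM in DI150, at least 104-fold and at least 113-fold above the PBS floor.

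3830417A13Rik, a protein-coding gene at chrX:64173548-64178779, plus strand, had no read in PBS, 72.7 and 96.99 CPM in I80 and 606 and 598 CPM in DI150. With no read in PBS, it stood at least 725-fold above the floor in I80 and at least 5145-fold in DI150. It also had the largest difference between the treated lines of the 45 genes. DI150 was 7.10 times I80 with no overlap, a log2 difference of 2.83 ± 0.13 (SE, limma adjusted p = 1.38e-05). The 250 bases before its RefSeq start (chrX:64173298-64173547, plus strand) are shown because its match to TGACNNNGC, in capitals 118 bases before the start, also holds TGANTCA, the AP-1 site.
3830417A13Rik: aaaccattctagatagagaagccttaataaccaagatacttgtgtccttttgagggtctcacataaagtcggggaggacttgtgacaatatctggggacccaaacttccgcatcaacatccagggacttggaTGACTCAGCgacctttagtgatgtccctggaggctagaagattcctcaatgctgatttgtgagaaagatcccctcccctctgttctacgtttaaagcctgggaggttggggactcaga

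Promoters were available from RefSeq (GRCm38.p6, 250 bases before to 50 after the start) for 35 of the 45 genes, 51 promoters in all. TGACNNNGC, on either strand, was in 13.7% of them, in 12.4% of all 32851 mouse promoters and in 14.4% of the 11681 of tested genes. Gsta3, Gstm7, Il17rd, Thrb, Igf2, Tenm4 and 3830417A13Rik held it. TGANTCA was in 3.92% against 5.05% for tested genes, and ACGTG, the core of the hypoxia response element, in 17.6% against 25.8%. TTANNTAA, part of the PAR bZIP site, was in 1.96% against 3.36%. Counted by gene, the antioxidant response element letters were in a promoter of 20% of the switched-on genes and 17.1% of tested genes, so the order depends on the way of counting. CG dinucleotides differed more: the median was 9.0 per promoter against 21.0 for tested genes and 7.0 for all genes, and 27.5% had at most 5 against 11% for tested genes and 43.6% for all. TATAAA was in 17.6%, against 6.65% for tested genes and 13.6% for all. These are counts of letters and were not tested.

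The 45 genes lie on 16 chromosomes, and 4 pairs of them are within 1 megabase, all on chromosome 3. Among these are Gstm1 and Gstm2, 25.8 kb apart, Gstm2 and Gstm7, 49.8 kb apart, and Olfml3 and Bcl2l15, 93.0 kb apart. Next to the switched-on genes were 87 other tested genes. Limma called 37 of these (42.5%) higher than PBS in both treated lines, against 23.2% of all tested genes outside the 45, and 21 (24.1%) were at least 2-fold higher in both against 6.68%. The comparisons with PBS share their control libraries, and the difference in these shares was not tested.

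Over these 87 neighbours the median log2 difference was 0.26 in I80 and 0.39 in DI150, and single ones ranged from far below PBS, such as Lypd3 at -5.06 and -4.20, to far above it. Between Olfml3 and Bcl2l15, the kinase gene Hipk1 had 213 and 215 CPM in PBS, 1068 and 988.5 CPM in I80, and 957 and 948 CPM in DI150. Dclre1b and Ap4b1, also between them, stood 2.29 and 2.63 log2 units above PBS in I80 and 2.50 and 2.61 in DI150. Beyond Bcl2l15 the difference was smaller, with Ptpn22 at 1.10 and 1.68 and Phtf1 at 0.69 and 0.87. Plpp3, next to Prkaa2, averaged 2.43, 59.0 and 23.1 CPM, and Tmtc2, next to the noncoding RNA Gm15663 (0.409, 19.4 and 22.1 CPM), averaged 7.62, 121 and 116 CPM. Gm15663 lies 0.072 kb from Tmtc2 and shares 2.59% of its read-length stretches with it, so the count of Gm15663 is uncertain. Cbr1, next to Cbr3, averaged 18.7, 137 and 132 CPM. In the Gstm cluster, Gstm5 and Gstm6 stood above PBS in both lines while Gstm4 stood below it, by -0.64 in I80 and -2.28 in DI150.

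**Figure D3:**
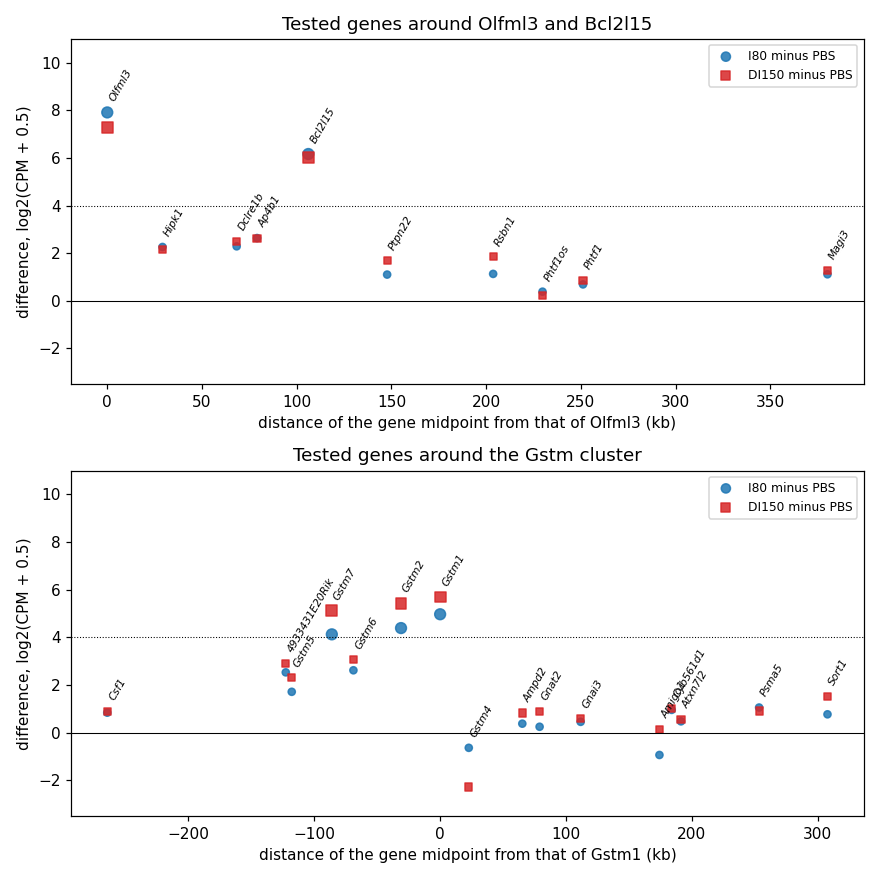
Difference from PBS of the tested genes around Olfml3 and Bcl2l15 (upper panel) and around the Gstm cluster (lower panel), as I80 minus PBS (blue circles) and DI150 minus PBS (red squares) on the log2(CPM + 0.5) scale, against the distance of each gene's midpoint from that of Olfml3 or Gstm1 in kb. Larger markers are switched-on genes and the dotted line is the difference of 4 that chose them; the genes between Olfml3 and Bcl2l15 lie between 2.15 and 2.63, and Gstm4 lies below 0.

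Between the treated lines, limma called 10 of the 45 genes higher in DI150 and 10 lower, and 25 were not called. This is 44.4% of them, where 43.8% of all tested genes were called in that comparison, 21.9% higher and 21.9% lower, so the share is near the background and is not a result about these genes. With a log2(CPM + 0.5) difference of at least 1 in size, 4 of the 45 were called higher and 4 of the 45 lower. Of all tested genes, 3.40% and 3.10% were, and the difference in these shares was not tested. The higher ones were 3830417A13Rik, Hlf, Col9a1 and Csn3, with Gstm7 just short at 0.99 although its ratio of mean CPM was 2.03, and the lower ones were Arhgef6, Otos, Cd177 and Egln3. The median absolute difference of the 45 was 0.42 log2 units, against 0.26 for all tested genes. By role, both genes for oxygen and energy sensors were lower in DI150, and the 9 matrix and secreted proteins divided into 2 higher, 3 lower and 4 not called. The roles hold few genes and were set with earlier results known. Beside the background of 21.9% each way, these counts are therefore not a result about a role.

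**Figure D4:**
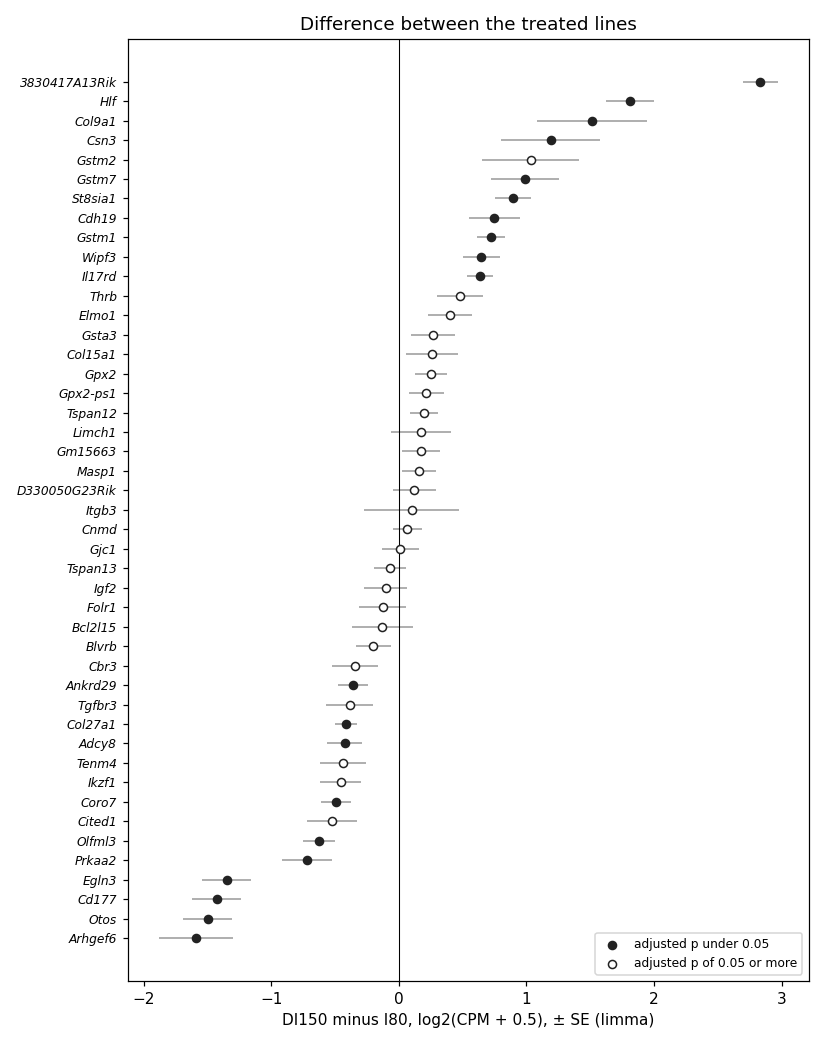
DI150 minus I80 for each of the 45 switched-on genes on the log2(CPM + 0.5) scale with its standard error from limma, filled where the adjusted p is under 0.05. The values run from -1.59 (Arhgef6) to 2.83 (3830417A13Rik), with 10 filled points on each side of 0.

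The plot of differences between the lines shows 10 filled points on each side of 0 and 25 open ones from -0.52 (Cited1) to 1.04 (Gstm2). The calls that lay nearest the threshold depended on single libraries, and the spread of the test pools the PBS libraries. Leaving out I80 replicate 1 left 5 higher and 6 lower, I80 replicate 2 left 5 and 4, DI150 replicate 1 left 5 and 6, and DI150 replicate 3 left 5 and 7, whereas leaving out PBS replicate 2 gave 16 and 13. Adcy8, Ankrd29, Cdh19, Col9a1, Csn3, Gstm7, Prkaa2 and Wipf3 lost their call with any of the 4 treated libraries left out, Coro7 with 3, Col27a1 with 2 and Olfml3 with 1 (adjusted p from 0.0545 to 0.295). Called in all 18 alternatives were 3830417A13Rik, Hlf, St8sia1, Gstm1, Il17rd, Otos, Cd177 and Egln3.

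At the threshold itself, the genes just inside were Wipf3, Igf2 and Tenm4, for which the smaller of the differences from PBS was 4.02, 4.04 and 4.05. Tenm4 had 0.489 and 0.687 CPM in PBS, 26.6 and 21.1 CPM in I80 and 15.6 and 19.4 CPM in DI150. The genes just outside were Nipal4 at 3.99, Arnt2 at 3.98 and Ptpn7 at 3.98. Nipal4 had 19.5 and 28.3 CPM in PBS, 372 and 389 CPM in I80 and 584 and 444 CPM in DI150, far above the genes just inside. Arnt2 had 3.23 and 5.18 CPM in PBS, 76.04 and 68.3 CPM in I80 and 90.97 and 65.9 CPM in DI150, and Ptpn7 had 0.301 and 1.01 CPM in PBS, 17.2 and 16.4 CPM in I80 and 22.3 and 27.4 CPM in DI150. The set also depends on the PBS libraries: with PBS replicate 1 left out 36 genes met the rule, without Cdh19, Col9a1, Elmo1, Folr1, Gstm2, Gstm7, Itgb3, Tenm4 and Wipf3, and with PBS replicate 2 left out 54 did, without Igf2.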

How the data were processed

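Total RNA (200 ng) was depleted of ribosomal RNA and sequenced with a stranded kit as single 81-base reads, per the labels' protocols, which also describe another depletion kit and RNA amount. STAR and mm10, without versions, are named in the submitters' processing notes, but no source used here names the read counter, its annotation or its strand setting. CPM are the values the authors deposited, with the same sum in every library. Within 1e-06, 100.0% of 146724 values were whole multiples of 1 read, which gave the depths. The column numbered 3 of DI150 matches no label number and was used as a DI150 replicate without one. RefSeq (GRCm38.p6) named 24374 genes (99.67%), and the others held 1.21% to 1.52% of a library's reads.

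The main test was limma 3.58.1 (R 4.3.3, trended eBayes, two-sided, Benjamini-Hochberg) on log2(CPM + 0.5) for 11428 genes averaging at least 1 CPM. It fitted all 3 groups together, with 3 residual and 4.52 prior degrees of freedom, and a call is an adjusted p under 0.05. This scale understates the change of weakly expressed genes, so folds are ratios of mean CPM. Against a group without reads, folds are lower bounds from 3 reads per library. Floors and intervals cover counting error only. Other settings were edgeR 4.0.16 and DESeq2 1.42.0 on the recovered reads, other pseudocounts, filters and scalings, a replicate block, and each library left out. The scripts were tested on simulated data.

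The 45 genes, their lists and roles were chosen with earlier results of these data known. Every library is given for the 12 genes with the highest treated mean, those without a PBS read, the 6 largest calls each way between the lines, and 3 genes on each side of the threshold. Exon overlap and shared 81-base stretches come from GENCODE transcripts. No protein sequence was used here.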

Additional observations from a re-analysis of the deposited data

Results flagged for a closer look

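The difference between the lines was itself tested, and 20 of the switched-on genes differed between DI150 and I80 (limma, adjusted p under 0.05). These are DI150 minus I80 on the log2(CPM + 0.5) scale, from 2 libraries per line. Higher in DI150 were 3830417A13Rik at 2.83, Hlf at 1.81, Col9a1 at 1.52, Csn3 at 1.19 and Gstm7 at 0.99. The smaller rises were St8sia1 at 0.90, Cdh19 at 0.75, Gstm1 at 0.73, Wipf3 at 0.65 and Il17rd at 0.64. Lower in DI150 were Arhgef6 at -1.59, Otos at -1.50, Cd177 at -1.43, Egln3 at -1.35 and Prkaa2 at -0.72. The smaller falls were Olfml3 at -0.63, Coro7 at -0.49, Adcy8 at -0.42, Col27a1 at -0.41 and Ankrd29 at -0.36. These genes are 44.4% of the 45, near the 43.8% of all tested genes called in this comparison.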

How the results depend on the processing

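The choice of the genes moved most with the pseudocount: 84 genes met the rule with 0.1, among them all 45, and 30 with 1. With 1 library left out, 36 to 54 genes met it, and under the other filters and scalings 45 to 47. No call or direction of a single gene reversed. With 1 library left out, 5 to 16 of the 45 genes were called higher in DI150 than in I80 and 4 to 13 lower, and over all tested genes 2488 to 6091 were called in that comparison. In such a fit the lone library of a group is assumed to vary like the other groups. For I80 against PBS these fits called 5979 to 7599 genes, and for DI150 against PBS 6601 to 7854. EdgeR called 12 of the 45 higher and 14 lower, and DESeq2 12 and 12. Lost in at least 1 setting were the calls of Adcy8, Ankrd29, Arhgef6, Cdh19, Col27a1, Col9a1, Coro7, Csn3, Gstm7, Olfml3, Prkaa2 and Wipf3, with an adjusted p of up to 0.331, and the cause was not tested. After group means were taken out, libraries numbered 1 correlated at 0.0228 (PBS and I80), -0.0551 (PBS and DI150) and 0.213 (I80 and DI150). With 2 libraries per group, these values cannot decide whether the replicate numbers pair the samples. With a replicate block, 2688 genes were called between the treated lines, with 9 of the 45 higher and 7 lower, and with DI150 replicate 3 taken as replicate 2 the block gave 4903 genes, 11 higher and 10 lower. Depth limits the PBS levels most, since 8 of the 45 genes had at most 1 PBS read in all.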
